A study of Mus musculus with 12 samples.

Results

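The 10 genes described here are the immediate early genes Fos, Fosb, Fosl2, Jun, Junb, Jund, Egr1, Atf3, Ier2 and Ier3, taken by name from the 35896 genes to which the transcripts of 12 mouse uteri were summed. Immediate early genes are transcribed within minutes of a stimulus from factors that are already in the cell, and their mRNAs are short-lived. Fos and Jun proteins pair through a leucine zipper to form AP-1, which binds DNA and switches on later genes, and ATF3 belongs to the same class of protein. EGR1 binds DNA through zinc fingers, IER2 is a nuclear regulator, and IER3 is a survival and stress protein that is not itself known to bind DNA, so the set is wider than transcription factors in the strict sense. In the rodent uterus, estrogen is known to induce Fos and Jun, and many other stimuli, handling of the tissue included, induce the same genes.

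The animals were wild-type female Swiss Webster mice, an outbred stock, 8 to 12 weeks old, with no treatment named in the labels. Whole uteri were taken in proestrus (replicates 1, 2 and 3), estrus (replicates 3, 4 and 5), metestrus (replicates 5, 6 and 7) and diestrus (replicates 3, 4 and 5), 3 per stage, and values below follow that order. Polyadenylated RNA was read by 3' TagSeq, which samples the 3' end of each transcript. The labels used here do not give the method of staging or the time of day of dissection, and p-values measure the spread between these 12 uteri.

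Libraries held 1652841 to 2200563 estimated counts. Levels are given as CPM, the share of a library's counts on a per-million basis after scaling with TMM factors. A count of 0 allows a level of up to 3 counts, here 1.37 to 1.89 CPM. These limits cover counting error only, since molecular identifiers are not described. Mitochondrial transcripts held 1.496% to 2.24% of the counts. Replicates correlated least in metestrus, with r over genes of 0.897 to 0.910 against at least 0.9395 in the other stages. Summed levels of 6 epithelial markers lay at 1617 to 2153 CPM in proestrus, 1325 to 1690 in estrus, 537 to 1086 in metestrus and 481 to 698 in diestrus. In whole tissue, a lower level can mean fewer cells of a type or less RNA per cell, and these cannot be told apart here. Of 6 ovary markers Zp3 and Fshr were at 0 in every library, and the sum of the 6 reached at most 6.27 CPM. The sum of 5 oviduct markers lay at 18.3 to 31.5 CPM in proestrus, 49.9 to 61.9 in estrus, 11.9 to 29.7 in metestrus and 14.8 to 35.4 in diestrus.

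The promoters of 4 members are shown as examples of windows with matches to short promoter elements. Fosb, whose window also held such matches, is not shown. Whether these elements have a part in the differences between stages was not tested. Each line gives 120 bases upstream of the start of transcription, 5′ to 3′ on the strand of the gene, from RefSeq windows on GRCm38.p6, ending before the more upstream of the RefSeq and GENCODE starts. Capitals mark matches to TGACG, the core of a cyclic AMP response element, to TGACNTCA, the form of AP-1 site bound by Jun with ATF partners, and to TATAA.
Fos (chr12:85473770-85473889, plus strand): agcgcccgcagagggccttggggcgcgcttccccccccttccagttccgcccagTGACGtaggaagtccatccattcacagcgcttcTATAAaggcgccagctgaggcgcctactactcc
Jun (chr4:95052223-95052342, minus strand): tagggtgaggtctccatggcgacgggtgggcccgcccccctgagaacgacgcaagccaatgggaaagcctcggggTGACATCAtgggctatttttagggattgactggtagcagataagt
Junb (chr8:84978749-84978868, minus strand): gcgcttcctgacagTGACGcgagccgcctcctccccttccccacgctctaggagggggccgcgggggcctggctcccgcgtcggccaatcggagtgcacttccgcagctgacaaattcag
Ier3 (chr17:35821564-35821683, plus strand): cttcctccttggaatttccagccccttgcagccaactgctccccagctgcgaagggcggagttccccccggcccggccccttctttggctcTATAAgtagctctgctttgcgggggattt

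Windows were matched for 8 of the 10 members, and Egr1 and Ier2 were not among them. On both strands of the 250 bases before the RefSeq start, TGACG occurred in 4 of the 8 (Fos, Fosb, Junb and Atf3) and in 17.8% of all 32807 windows of that length. TGACNTCA occurred in Jun alone of the 8 and in 7.50% of all windows, and TATAA in Fos and Ier3 and in 22.8%. The AP-1 site TGANTCA and the CArG box, which serum response factor binds, occurred in 0 of the 8, against 6.75% and 1.47% of all windows. The GC box GGGCGG occurred in 6 of the 8 (not in Junb and Jund) and in 32.7% of all windows, and the EGR site GCGNGGGCG in Fosb and Fosl2 and in 4.70%. The palindromic estrogen response element and its arm AGGTCA were likewise found in 0 of the 8, against 0.0640% and 14.0%. The Jund window lies at -1210 from the GENCODE start, and those of Fosl2 and Atf3 lie 671 and 34706 bases inside the gene. A match is a description of letters and not of a site in use. Bases farther upstream than these 250 were not searched, so 0 matches does not show that a gene lacks an element.

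Of the 10 members, 9 passed the filter on low counts and Fosb did not. Over the 4 stages 4 of the 9 differed, Ier3, Fosl2, Junb and Atf3 (F test of the edgeR quasi-likelihood fit, with p-values adjusted by Benjamini-Hochberg over all genes and called under 0.05), against 23.2% of the 12052 genes tested. All 4 had their highest mean in estrus, and Ier3, Fosl2 and Junb their lowest in diestrus. Jun passed the test from proestrus to estrus only. Fos and Egr1 varied most between animals of the same stage, and Jund and Ier2 passed no test.

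**Figure D1:**
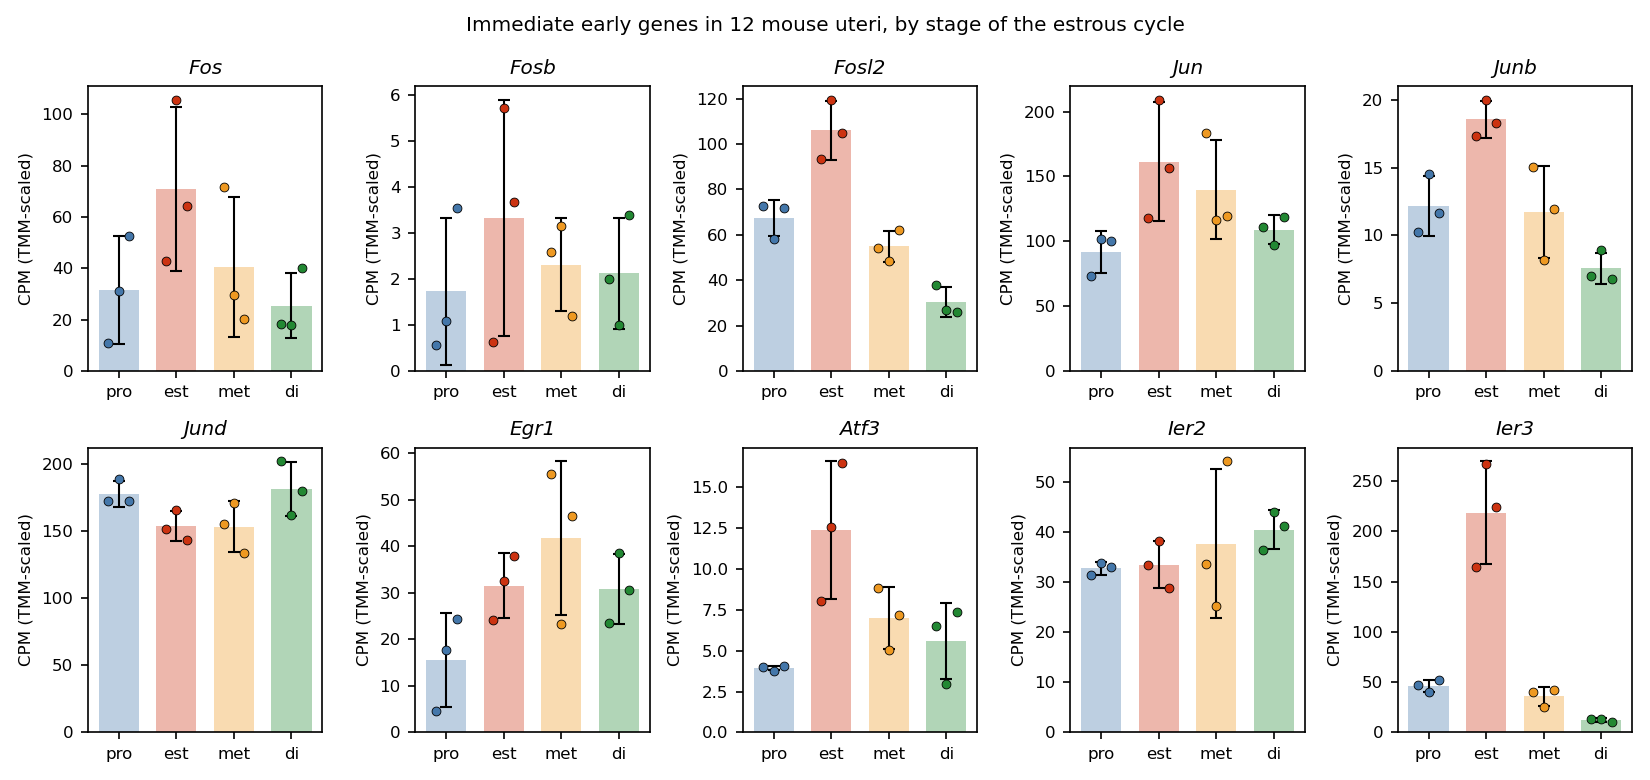
CPM of each of the 10 genes in each of the 12 uteri (points), with the stage mean (bar) and SD (error bar, n = 3), in proestrus (pro), estrus (est), metestrus (met) and diestrus (di). The estrus points of Ier3 and Fosl2 lie above all others, whereas the points of Fos and Egr1 scatter widely within stages.

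Fosl2 encodes FRA2, a Fos family member that lacks the strong activating end of FOS (ENSMUSG00000029135, chromosome 5, 32135801 to 32157842). Gene positions here and below are those of GENCODE M21 on GRCm38, and all 10 members are annotated as protein coding. Its levels were 72.4, 58.2 and 71.6 CPM in proestrus, 93.4, 119.5 and 104.9 in estrus, 53.9, 48.6 and 62.0 in metestrus and 37.9, 26.7 and 26.0 in diestrus. Every estrus uterus lay above every other uterus, and every diestrus uterus below every other. The stage order was thus estrus (106 ± 13.1 CPM, SD, n = 3), proestrus (67.4 ± 7.97), metestrus (54.8 ± 6.74) and diestrus (30.2 ± 6.66), in which proestrus and metestrus did not differ beyond their spread (log2 fold change -0.30 ± 0.17, SE; adjusted p = 0.352). Fosl2 rose from proestrus to estrus by 0.65 ± 0.17 on the log2 scale (adjusted p = 0.0170, higher in 3 of 3). Leaving out proestrus replicate 2, estrus replicate 4 or estrus replicate 5 ended that call (adjusted p = 0.0720, 0.0903 and 0.0550). It fell from estrus to metestrus by 0.95 ± 0.17 (adjusted p = 0.00529), and diestrus minus estrus was -1.81 ± 0.18, a 3.50-fold difference (adjusted p = 2.72e-05). From diestrus to proestrus it rose by 1.15 ± 0.18 (adjusted p = 0.00159). The step from metestrus to diestrus, -0.86 ± 0.18, missed the threshold (adjusted p = 0.0750) although the groups did not overlap. It was called in 3 of 19 alternatives, namely DESeq2 (adjusted p = 0.0147), no filter (0.0175) and the fit without metestrus replicate 6 (0.0415).

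Fos, the founding member, gave another picture (ENSMUSG00000021250, chromosome 12, 85473890 to 85477273). Single uteri held 10.8, 31.3 and 52.8 CPM in proestrus, 42.7, 106 and 64.1 in estrus, 71.6, 29.7 and 20.3 in metestrus and 18.4, 17.8 and 40.2 in diestrus. The highest uterus of a stage exceeded the lowest by 2.26-fold to 4.87-fold, and all stages overlapped except estrus and diestrus. The mean was highest in estrus, 70.9 ± 32.1 CPM, and lowest in diestrus, 25.5 ± 12.7 (SD, n = 3), but the F test was not passed (adjusted p = 0.154). Diestrus minus estrus was -1.49 ± 0.54 on the log2 scale (SE), with a 95% interval from -2.64 to -0.34 and an adjusted p of 0.0608. That difference was called in 7 of the 20 alternatives, with adjusted p-values from 0.00494 to 0.244, among them the fits without proestrus replicate 1 (0.0425), metestrus replicate 5 (0.0286), metestrus replicate 7 (0.0437) or diestrus replicate 5 (0.0476). The F test was passed without metestrus replicate 5 (adjusted p = 0.0497) and without a filter on low counts (0.0142). Estrus minus proestrus was 1.15 ± 0.52 (interval 0.02 to 2.28, adjusted p = 0.151, and 0.0387 without a filter), and 2 of the 3 estrus uteri lay above all 3 in proestrus.

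Fosb, whose full-length product is an activator like FOS, was near the limit of detection (ENSMUSG00000003545, chromosome 7, 19302696 to 19310051). It had between 1 and 10 counts in a library, at or under 3 counts in 5 of the 12, and 53 in all. Its levels were 0.570, 1.08 and 3.55 CPM in proestrus, 0.619, 5.72 and 3.66 in estrus, 2.59, 3.16 and 1.19 in metestrus and 1.99, 0.989 and 3.40 in diestrus. In the fit without a filter its adjusted p over the stages was 0.826, and no stage difference was detectable at this depth.

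Jun is the partner that can bind DNA with itself as well as with Fos proteins (ENSMUSG00000052684, chromosome 4, 95049034 to 95052222). The uteri held 73.0, 102 and 100.5 CPM in proestrus, 118, 209 and 157 in estrus, 184, 117 and 119 in metestrus and 111, 96.9 and 119 in diestrus. Every estrus and every metestrus uterus lay above every proestrus uterus. Jun rose from proestrus (91.8 ± 16.3 CPM, SD, n = 3) to estrus (161 ± 45.8), by 0.81 ± 0.23 on the log2 scale (SE; adjusted p = 0.0255). This call ended without proestrus replicate 1 (adjusted p = 0.106) or 3 (0.0581) and without estrus replicate 4 (0.144) or 5 (0.0653). Metestrus minus proestrus, 0.61 ± 0.23, and diestrus minus estrus, -0.57 ± 0.22, were not called (adjusted p = 0.137 and 0.0819). Neighbours in the order estrus, metestrus, diestrus and proestrus did not differ beyond their spread (adjusted p = 0.617, 0.572 and 0.599 for the contrasts in that order). The F test gave an adjusted p of 0.0531. It was passed without estrus replicate 3 (0.0298) or metestrus replicate 5 (0.0274), 6 (0.0432) or 7 (0.0429), with DESeq2 (0.0249) and without a filter (0.0155), and diestrus minus estrus was called without estrus replicate 3 (0.0368) or metestrus replicate 5 (0.0423) and in the fit to the 2 stages alone (0.0465). Junos, annotated on the opposite strand, covers 7.28% of the exonic bases of Jun.

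Junb is a weaker activator that can oppose Jun (ENSMUSG00000052837, chromosome 8, 84974484 to 84978718). It was measured at 10.3, 14.6 and 11.7 CPM in proestrus, 17.3, 20.02 and 18.3 in estrus, 15.0, 8.21 and 11.9 in metestrus and 6.98, 8.90 and 6.79 in diestrus. The 3 estrus uteri lay closest together in proportion, 1.16-fold apart, and above all others. From estrus (18.6 ± 1.36 CPM) to diestrus (7.56 ± 1.17) Junb was lower by -1.29 ± 0.27 on the log2 scale (adjusted p = 0.00461), which held in all 19 alternatives run. Its steps into and out of estrus were 0.61 ± 0.26 and -0.65 ± 0.26, neither called (adjusted p = 0.127 and 0.150), although the groups did not overlap in either. The F test (adjusted p = 0.0213) was lost without estrus replicate 4 (0.0847) or 5 (0.0670) and without diestrus replicate 3 (0.0634) or 5 (0.0606). Exons of Prdx2 on the opposite strand cover 7.52% of its annotated exonic bases, but 0 of the 1779 31-mers of its transcript in the files occurred in the transcripts of another gene, in either orientation.

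Jund, the Jun family member that many tissues express without a stimulus, had the narrowest range of the set (ENSMUSG00000071076, chromosome 8, 70698949 to 70700616). It held 172, 189 and 173 CPM in proestrus, 152, 166 and 144 in estrus, 156, 171 and 134 in metestrus and 202, 162 and 180 in diestrus. The highest of the 12 uteri stood 1.52-fold above the lowest. No contrast was called, and the 95% intervals of the 6 differences lay between -0.50 and 0.53 on the log2 scale. All 3 estrus uteri lay below all 3 in proestrus, by -0.21 ± 0.13 (adjusted p = 0.309), a direction opposite to that of Jun and Junb. Its level is uncertain because the antisense gene Gm11175 covers 52.6% of its exonic bases and the use of strand in counting is not given in the sources used here.

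Egr1, a zinc finger factor that responds to growth factors and estrogen, was spread like Fos (ENSMUSG00000038418, chromosome 18, 34859823 to 34864984). Its levels were 4.56, 17.8 and 24.4 CPM in proestrus, 24.1, 32.6 and 38.01 in estrus, 55.5, 23.4 and 46.5 in metestrus and 23.4, 38.6 and 30.6 in diestrus. Proestrus replicate 1 was the lowest uterus for both Egr1 and Fos, and metestrus replicate 5 the highest for Egr1. Egr1 had its highest mean in metestrus (41.8 ± 16.6 CPM) and its lowest in proestrus (15.6 ± 10.1). That difference, 1.41 ± 0.42 on the log2 scale with an interval from 0.50 to 2.32, missed the threshold (adjusted p = 0.0766), and was called in 3 of 19 alternatives, namely DESeq2 (0.0279), no filter (0.00543) and the fit without metestrus replicate 6 (adjusted p = 0.0215). Without that uterus the F test was passed as well (0.0385, against 0.108 with all 12). Estrus and diestrus means differed by -0.04 ± 0.40 (interval -0.90 to 0.82).

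Atf3, which is induced by many cell stresses and can repress, rose in estrus from a low level (ENSMUSG00000026628, chromosome 1, 191170296 to 191218039). The 3 proestrus uteri held 3.99, 3.77 and 4.06 CPM and the estrus uteri 8.04, 12.6 and 16.5. Metestrus stood at 8.82, 5.05 and 7.15 CPM and diestrus at 6.48, 2.97 and 7.36. All metestrus and estrus uteri exceeded all proestrus uteri. From proestrus to estrus the rise was 1.65 ± 0.41 on the log2 scale, or 3.14-fold (adjusted p = 0.0151), and it was no longer called without proestrus replicates 1 (adjusted p = 0.0505) or 3 (0.0541) or without estrus replicate 5 (0.0803). The F test (adjusted p = 0.0346) was not passed without proestrus replicate 1 (0.0745), 2 (0.0787) or 3 (0.0771), estrus replicate 4 (0.111) or 5 (0.182), or diestrus replicate 3 (0.0532). Diestrus minus estrus, -1.16 ± 0.39 (adjusted p = 0.0454), was not called without proestrus replicate 1 (0.0606), 2 (0.0598) or 3 (0.0604), estrus replicate 4 (0.113) or 5 (0.202), metestrus replicate 7 (0.0512), or diestrus replicate 3 (0.0813), 4 (0.173) or 5 (0.0554). In all it was called in 4 of 19 alternatives, and was missed also with DESeq2 (0.077), library totals (0.0663), no filter (0.0784), counts scaled from TPM (0.0651) and the 2 stages alone (0.0513). The F test was missed also with limma-voom (0.0703) and with counts scaled from TPM (0.0643). With 6 to 36 counts in a library, the stage order below estrus could not be resolved.

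Ier2 passed no test of a stage difference (ENSMUSG00000053560, chromosome 8, 84661331 to 84662852). It held 31.4, 34.0 and 33.0 CPM in proestrus, 33.4, 38.3 and 28.9 in estrus, 33.7, 25.2 and 54.3 in metestrus and 36.4, 44.0 and 41.3 in diestrus. The F test gave an adjusted p of 0.631 and the intervals of the 6 differences lay between -0.80 and 0.77 on the log2 scale. All 3 proestrus uteri lay below all 3 in diestrus (log2 fold change -0.31 ± 0.23, SE; adjusted p = 0.483 for this contrast). Metestrus alone held both the lowest and the highest uterus, 2.15-fold apart.

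Ier3 moved most of all members (ENSMUSG00000003541, chromosome 17, 35821684 to 35822923). It held 46.8, 39.9 and 51.8 CPM in proestrus, 165, 267 and 224 in estrus, 39.9, 25.2 and 42.3 in metestrus and 13.5, 13.3 and 10.2 in diestrus. The highest uterus stood 26.2-fold above the lowest, yet uteri of 1 stage lay within 1.30-fold to 1.68-fold of each other. It rose 4.73-fold from proestrus to estrus (log2 fold change 2.24 ± 0.21, SE; adjusted p = 6.74e-05) and fell by 2.60 ± 0.22 from estrus to metestrus (adjusted p = 6.58e-05), all with 3 of 3 uteri outside the range of the other stage. Metestrus and proestrus did not differ beyond their spread (-0.36 ± 0.22, adjusted p = 0.385). From metestrus to diestrus it fell by 1.53 ± 0.25 (adjusted p = 0.0322). From estrus to diestrus the difference was -4.13 ± 0.24, or 17.6-fold (adjusted p = 6.28e-07), and from diestrus to proestrus Ier3 rose by 1.89 ± 0.25 (adjusted p = 0.000498). The step from metestrus to diestrus ended as a call in 6 of 12 fits without a library, namely proestrus replicate 1 (0.0644), estrus replicate 5 (0.0574), metestrus replicate 5 (0.0771), and diestrus replicates 3 (0.0635), 4 (0.101) and 5 (0.116). It ended also with limma-voom (0.104), with counts scaled from TPM (0.0832) and in the fit to the 2 stages alone (0.226).

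Counted by step of the cycle, the members that passed the test all moved in the same direction within a step. From proestrus to estrus Fosl2, Jun, Atf3 and Ier3 rose and 0 fell, which makes 4 of 9 where 17.1% of all genes were called with 9.67% higher and 7.46% lower. From estrus to metestrus Fosl2 and Ier3 fell, against 7.56% called, 2.83% higher and 4.73% lower, among all genes. From metestrus to diestrus Ier3 alone fell (0.224% called, 0.133% higher and 0.0913% lower), and from diestrus to proestrus Fosl2 and Ier3 rose (8.53% called, 4.62% higher and 3.91% lower). Between diestrus and estrus Fosl2, Junb, Atf3 and Ier3 were lower in diestrus, against 22.8% called, 9.72% higher and 13% lower, among all genes. Between metestrus and proestrus 0 members were called by edgeR (4.31% of all genes, 2.49% higher and 1.82% lower). In that contrast 2 of the 9, Jun and Egr1, had an unadjusted edgeR p under 0.05, as did 2535 of all 12052 genes. DESeq2 called 1 member, Egr1, and limma-voom called 0, and their shares over all genes are not given here. Contrasts that share a stage share its 3 uteri and are not independent of each other.

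**Figure D2:**
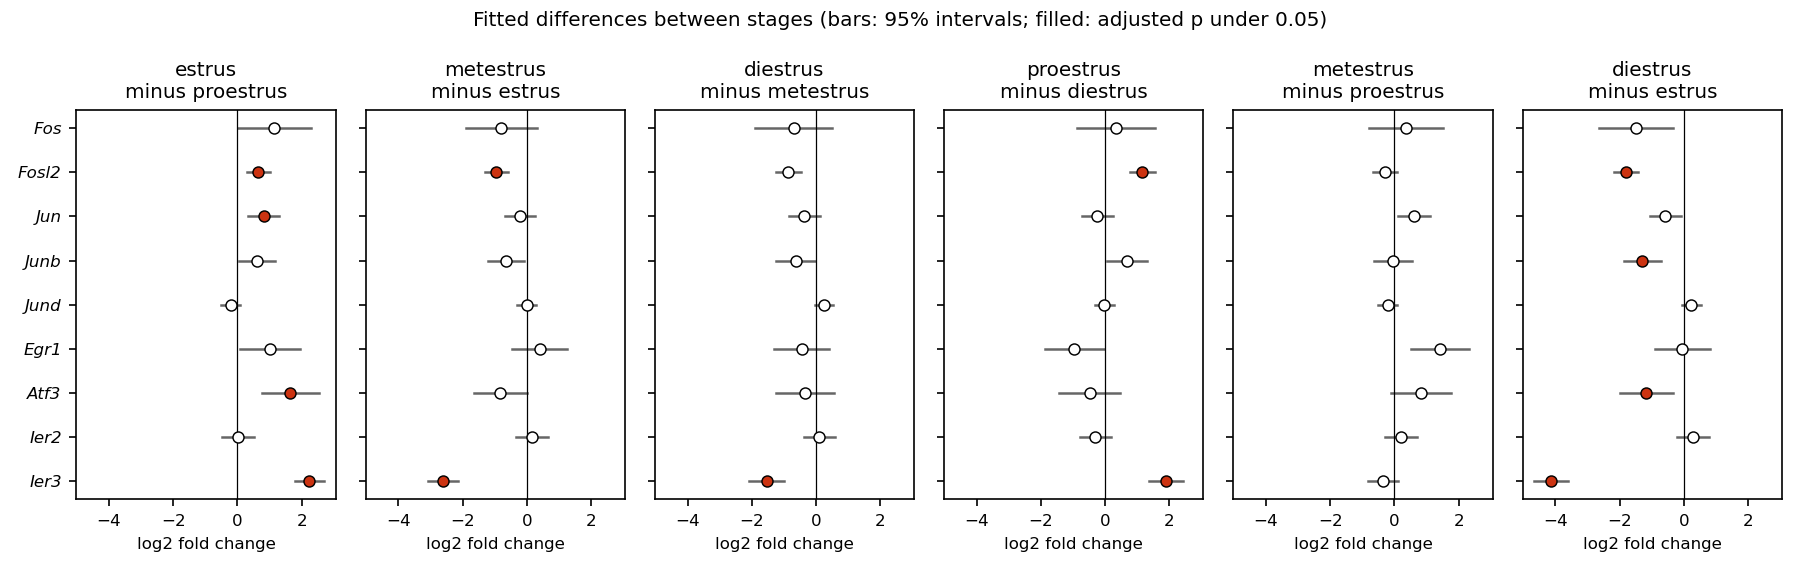
Log2 fold change (horizontal axis) of the 9 tested members in the 6 contrasts between stages, from the edgeR fit to all 12 uteri. Lines are 95% intervals and filled points passed an adjusted p of 0.05, and the filled points lie to the right in estrus minus proestrus and to the left in diestrus minus estrus.

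The members differed in how much of their variation lay between stages and how much between animals of a stage. For Ier3, 97.2% of the variance of log2 CPM lay between stages, for Fosl2 93.3% and for Junb 80.4%, against a median of 48.1% over all tested genes. For Fos it was 39.6%, for Egr1 50.9% and for Ier2 18.7%. The SD between animals of a stage was 0.847 log2 units for Fos and 0.699 for Egr1, above those of 96.2% and 93.0% of all tested genes. Among the 500 genes nearest in mean level the SDs of Fos and Egr1 exceeded 98.8% and 98.2%. Jund, at 0.136, Fosl2, at 0.210, Junb, at 0.255, Ier2, at 0.297, and Ier3, at 0.299, lay below the median of 0.304 over all genes. Among the 500 genes nearest in level, however, Jun exceeded 86.6%, Ier3 80.2%, Ier2 68.8% and Fosl2 53.6%. In the same comparison Atf3 exceeded 34.2%, Jund 29.8% and Junb 14%.

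**Figure D3:**
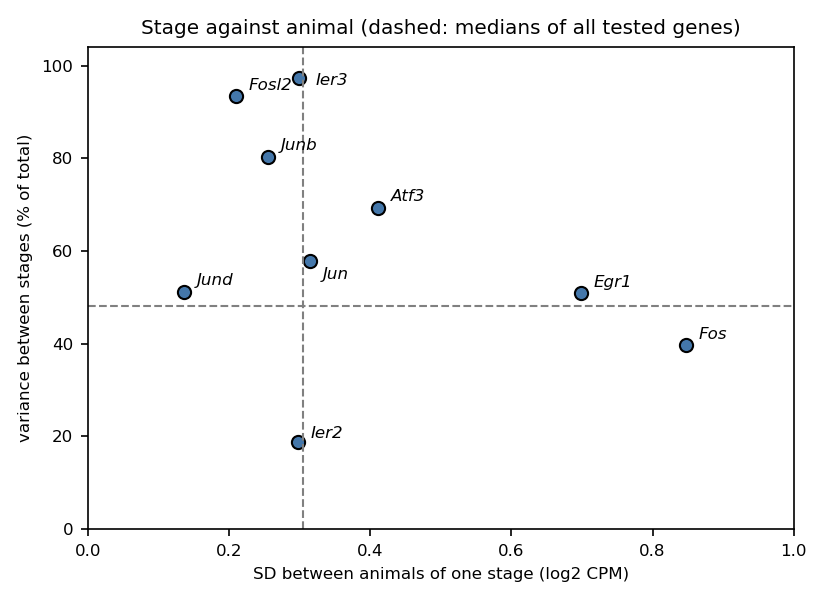
SD between animals of a stage (horizontal axis, log2 CPM) against the share of variance between stages (vertical axis, %) for the 9 tested members. Fos and Egr1 stand to the right at 0.847 and 0.699, and Ier3 and Fosl2 at the top at 97.2% and 93.3%, with dashed lines at the medians of all tested genes.

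Whether the members vary together between animals was examined after each stage mean had been subtracted. The 9 tested members form 36 pairs, of which 28 had a positive r, with a median of 0.312. Of the other tested genes, 49.8% to 51.5% had a positive r with a given member. The 36 pairs share genes and uteri and are not independent of each other. Fos and Jun were closest (Pearson r = 0.871, exact permutation p = 0.0054 within stages, two-sided, n = 12; Spearman rho = 0.860, exact permutation p = 0.00617), and r was 0.855 without the 2 uteri farthest from the median of Fos. The uteri in which Fos lay above its stage mean were proestrus 2 and 3, estrus 4, metestrus 5 and diestrus 5, and Jun lay above its own in each of them. After adjustment over the 36 pairs 0 passed (adjusted p = 0.194 for Fos and Jun), and 3 had an unadjusted p under 0.05. The other 2 were Fosl2 with Ier3 (r = 0.734, exact permutation p = 0.0185, adjusted p = 0.333; rho = 0.727, p = 0.0139) and Junb with Egr1 (r = 0.693, exact permutation p = 0.0494, adjusted p = 0.578; rho = 0.797, p = 0.0239). Without their 2 farthest uteri these r values were 0.776 and 0.625. On the log2 TPM scale Fos and Jun passed (adjusted p = 0.0278).

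**Figure D4:**
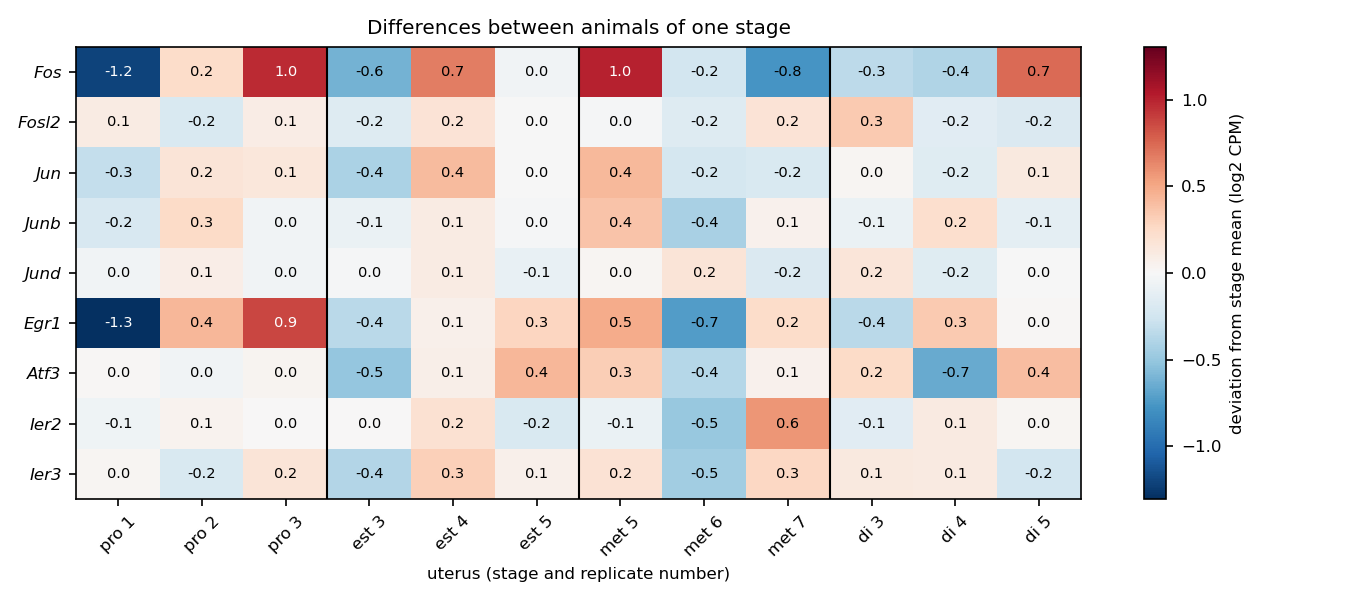
Deviation of log2 CPM from the stage mean (colour and printed value) for the 9 tested members in the 12 uteri, named by stage and replicate number. The rows of Fos and Jun take the same sign in every uterus but diestrus replicate 3, and the largest deviations are those of Egr1 and Fos in proestrus replicate 1.

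On the per-length scale of the deposited TPM, averaged over the 12 uteri, the order of levels was Jund (126), Ier3 (86.2), Jun (43.7), Ier2 (29.1), Fos (22.4), Fosl2 (10.6), Egr1 (8.86), Junb (8.34), Atf3 (4.13) and Fosb (0.893). A 3' method gives long transcripts no more reads than short ones, so division by length lowers long genes such as Fosl2 in this order. The gene most like each member over the 12 uteri, by Pearson r of log2 CPM as a description, was Cebpb for Fosl2 (r = 0.975), Skap2 for Junb (0.972), Litaf for Ier3 (0.968), Man2b1 for Atf3 (0.943), Ubl7 for Egr1 (0.923), S1pr3 for Fos (0.920), Cyp1b1 for Ier2 (0.914), Ank3 for Jun (0.906) and Epb41l1 for Jund (0.903). Each r was picked as the highest over all tested genes outside the set, in 12 uteri. Cebpb, a leucine zipper factor needed for decidualization, held 110.1 ± 11.2 CPM in proestrus, 137 ± 15.4 in estrus, 73.5 ± 11.7 in metestrus and 37.6 ± 7.27 in diestrus (SD, n = 3). Cyp1b1 held 0.909 ± 0.861 CPM in proestrus and 1.86 ± 1.37 in estrus, near or under the level of 3 counts. In metestrus it held 14.4 ± 23.7 CPM, an SD above the mean. Between members themselves the closest pair over all 12 uteri was Fosl2 and Ier3 (r = 0.960), values that stage means dominate.

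Other genes of the same systems were counted in lists written from general knowledge, but with earlier results of these data known. Their counts are a description and not an independent check. Of 22 further immediate early transcription factors 14 could be tested, and from proestrus to estrus 4 rose and 2 fell, with a median log2 fold change of -0.0046 against 0.016 for all genes. Nfkbiz, an inducible regulator of NF-kappaB, rose from 13.6 ± 1.54 to 40.9 ± 9.21 CPM (adjusted p = 0.00183) and Klf6 from 96.0 ± 4.77 to 203 ± 28.1 (adjusted p = 0.000903). Klf4, an epithelial zinc finger factor, fell from 442 ± 102 to 227 ± 55.3 CPM (adjusted p = 0.015) and Id1, an inhibitor of helix-loop-helix factors, from 51.4 ± 11.1 to 18.1 ± 2.62 (adjusted p = 0.000445). The list thus held genes that rose with Fosl2 and Ier3 and genes that moved against them.

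Of 31 immediate early genes that encode other kinds of protein, 28 were tested, and 10 rose and 2 fell from proestrus to estrus (median log2 fold change 0.58). From estrus to diestrus 13 were lower and 1 higher (median -0.81, against 0.00068 for all genes). Ptgs2, the inducible prostaglandin synthase, stood at 1.06 ± 0.476 CPM in proestrus, under the level of 3 counts, and 42.8 ± 20.2 in estrus (adjusted p = 0.00022). Pim1, a survival kinase, went from 92.4 ± 12.9 to 185 ± 11.3 CPM (adjusted p = 0.00115), and Nfkbia, the inhibitor of NF-kappaB, from 197 ± 13.8 to 299.9 ± 17.8 (adjusted p = 0.00962). Rhob, a small GTPase, was the 1 gene higher in diestrus, with 189.9 ± 12.0 CPM against 84.8 ± 4.88 in estrus (adjusted p = 3.54e-05).

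Of the 20 leucine zipper partners and cofactors 16 were tested, and Maf, Cebpd and Crebbp rose from proestrus to estrus while 0 fell. Maf went from 311 ± 18.6 to 1017 ± 76.7 CPM (adjusted p = 0.000449) and Cebpd from 37.6 ± 3.88 to 125 ± 20.4 (adjusted p = 0.00908). From estrus to diestrus 6 of the 16 were lower and 0 higher. Cebpb, the gene most like Fosl2, fell from estrus to metestrus (adjusted p = 0.00617).

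Of 20 MAP kinases and serum response factor regulators, which act upstream of the family, 0 were called from proestrus to estrus (median log2 fold change -0.11), and 1 was higher and 1 lower in diestrus than in estrus. Rps6ka1, a kinase downstream of ERK, was the lower one, at 44.9 ± 5.66 CPM in estrus and 21.8 ± 4.83 in diestrus (adjusted p = 0.00294). A further list held feedback inhibitors of MAP kinase signalling or of EGR1, some of which ERK signalling itself induces. Of its 13 tested genes, 0 were called from proestrus to estrus, and 1, Dusp6, was lower in diestrus than in estrus. Dusp6, the phosphatase of ERK, stood at 33.6 ± 2.99 CPM in proestrus and 36.5 ± 2.45 in estrus and fell to 15.4 ± 2.56 in metestrus (adjusted p = 0.00188).

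Genes that AP-1 or EGR1 can activate moved in both directions. Of 15 tested, 6 rose and 1 fell from proestrus to estrus, and 5 were lower and 3 higher in diestrus than in estrus. Spp1, which encodes osteopontin, rose from 15.5 ± 8.37 to 141 ± 89.1 CPM (adjusted p = 0.00226) and Mmp9, a gelatinase, from 2.47 ± 0.961 to 13.4 ± 0.98 (adjusted p = 0.00644). Ccnd1, a cell cycle gene, fell from 137 ± 5.27 to 50.8 ± 12.4 CPM (adjusted p = 0.00113). Their link to the members was not tested.

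**Figure D5:**
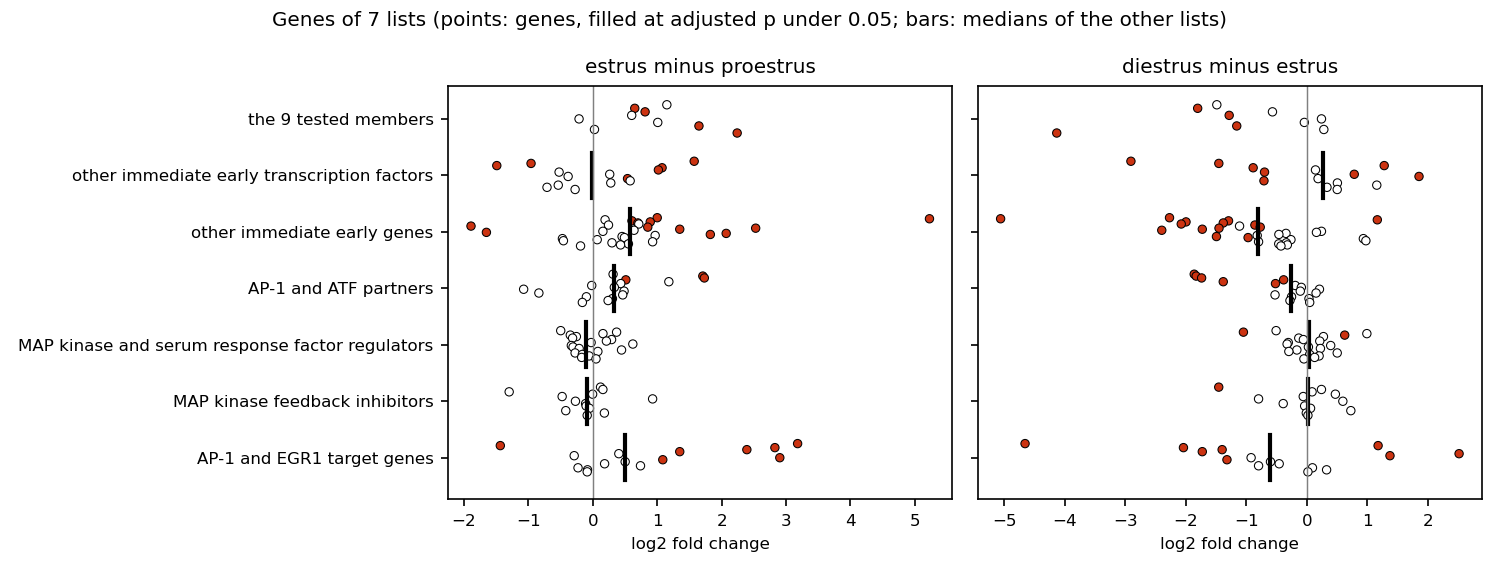
Log2 fold change (horizontal axis) of each tested gene in the members and 6 further lists, for estrus minus proestrus and diestrus minus estrus. Points are genes, filled at an adjusted p under 0.05, and bars are medians of the other lists, with other immediate early genes at 0.58 and -0.81 and the MAP kinase list at -0.11 and 0.03.

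Several other gene groups moved in the same steps, and their part in the members' differences was not tested. Of 12 hypoxia-inducible genes tested, 8 rose and 0 fell from proestrus to estrus (median log2 fold change 1.54), and 10 were lower and 1 higher in diestrus than in estrus. Hk2, a hexokinase, went from 27.1 ± 5.57 to 88.5 ± 12.5 CPM (adjusted p = 0.000364). Of 12 heat shock genes, Hspa1b rose from 40.1 ± 6.27 to 67.5 ± 9.99 CPM (adjusted p = 0.0162) while Hspe1, Hspd1 and Hsp90aa1 fell (adjusted p = 0.000445, 0.00562 and 0.00771). Of 17 tested genes known to respond to estrogen, 3 rose and 5 fell from proestrus to estrus, and 7 rose and 0 fell from diestrus to proestrus. Of 6 macrophage markers, 6 rose from proestrus to estrus, and their sum held 206 to 263 CPM in proestrus, 481 to 519 in estrus, 285 to 459 in metestrus and 282 to 359 in diestrus. From proestrus to estrus, 2 of 6 smooth muscle markers rose, 1 of 8 stromal markers rose and 2 fell, and 0 of 5 endothelial markers were called. Of 2 oviduct markers tested, Ovgp1 rose in that step from 14.5 ± 5.57 to 44.8 ± 4.58 CPM (adjusted p = 0.0322) and Ccdc39 was not called (0.768). The sum of 7 neutrophil markers lay at 8.63 to 19.3 CPM in proestrus, 6.41 to 60.6 in estrus, 6.56 to 15.8 in metestrus and 10.4 to 41.9 in diestrus. Of the 6 epithelial markers 0 were called from proestrus to estrus, the step in which Ier3 rose 4.73-fold, and 6 were lower in diestrus than in estrus, the step in which Fosl2, Junb, Atf3 and Ier3 were lower. In that step 3 of 6 smooth muscle markers (Myh11, Tagln and Actg2) and 3 of 6 macrophage markers (Csf1r, Cd68 and Mrc1) were lower too, and of 8 stromal markers 1 was higher and 1 lower.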

How the data were processed

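The authors deposited 1 table per uterus with an estimated count and a TPM value for each of 119414 transcripts. The submitters' processing notes name kallisto, FastQC and DESeq2. Transcript set, options and use of strand are not given in the sources used here. The deposited estimated counts were not whole in 66.9% of the cells above 0 (tolerance 1e-06), and the deposited TPM values are scaled per length. Identifiers were matched without version to GENCODE M21 on GRCm38 (116640 transcripts, 97.7%), and the rest, 0.619% to 0.774% of a library, was left out. Estimated counts were summed per gene and rounded.

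edgeR 4.0.16 (R 4.3.3) was used with filterByExpr (12052 genes), TMM factors (0.908 to 1.05), and a quasi-likelihood model with 1 coefficient per stage on all 12 uteri. An F test and 6 contrasts were adjusted by Benjamini-Hochberg over all genes, at 0.05. Log2 CPM used a prior count of 2. Correlations between members used deviations from stage means and all 1296 orders within stages, over 36 pairs because Fosb was not tested. Scripts were tested on simulated data. Alternatives were library totals, DESeq2 1.42.0, limma-voom (limma 3.58.1), other filters, counts scaled from TPM, 2 stages alone, a replicate block and leaving out each library.

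Members and lists were chosen with earlier results of these data known. All members are named, with at most 4 genes of each other list, those of smallest F test p, and for each member the most similar gene, except for a single gene that is not reported here.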

Additional observations from a re-analysis of the deposited data

How the results depend on the processing

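Of the 17 calls made for members over the 7 tests, 10 held in all alternatives run for them and 7 were lost in at least 1, and 8 of 46 results not called were called in at least 1. No call changed sign among these. Over the stages, 4 members were called, 7 without a filter on low counts and 2 with a minimum mean of 50 counts, which removed Junb and Atf3 from the test. For diestrus against metestrus the 1 call became 2 with DESeq2 or without a filter, and 0 with limma-voom, with counts scaled from TPM and in the fit to these 2 stages alone. For metestrus against proestrus, 0 became 1 with DESeq2 or without a filter. For diestrus against estrus, 4 became 2 with a minimum mean of 50 counts. Fos and Jun made 1 pair that passed within stages on the log2 TPM scale, against 0. Except for genes removed by a filter, the cause was not tested. The share of all genes called in each alternative, fits without 1 library included, is not given here. These counts therefore cannot tell a change in the members from a change in all genes. Without 1 library, the members called ranged from 2 to 6 over the stages, 1 to 4 for estrus against proestrus, 2 to 2 for metestrus against estrus and for proestrus against diestrus, 0 to 2 for diestrus against metestrus, 0 to 1 for metestrus against proestrus and 3 to 6 for diestrus against estrus, and 0 to 0 pairs passed within stages. With the replicate block on the 6 estrus and diestrus uteri, 4 members were called as before, but Fos was called (adjusted p = 0.00534) and Atf3 was not (0.0673). The fit to these 2 stages without a block likewise called Fos (adjusted p = 0.00924) and not Atf3 (0.0513), and it called Jun as well (0.0465). Deviations of same-numbered uteri of these stages correlated over genes with r of -0.0433, 0.0131 and -0.0166. No label says what the number marks, and 3 such values cannot tell whether these uteri share more than it. Depth limited Fosb, which had at most 3 counts in 5 of 12 libraries.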
